A study of Oryzias latipes with 27 samples.

Results

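The miRNAs of the gonad of XY medaka (Oryzias latipes) that lack DMY were compared with those of wild-type XY testis at 10 days post-hatch (D10). Members were taken by group label alone, which gave 6 of the 27 small RNA libraries of the series, 3 per group, and all 437 miRNAs of the count table. The MT_Fe_Ov group comprised XY fish whose DMY gene was disrupted with TALEN nucleases, kept as a stable line over generations, and which develop as females with an ovary. The deposited labels call these libraries gonads of knockout males in one field and ovaries of females in another. The WT_Ma_Te group was testis of wild-type XY males, and the 3 WT_Fe_Ov libraries, ovary of wild-type XX females, were used beside them where stated. The series also holds D30 and D120 libraries of the same 3 groups.

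At D10 the gonadal primordia were dissected together with adjacent tissue, without head or tail, so the libraries hold RNA of the gonad and of its surroundings. In such bulk samples fewer cells of a type and less RNA per cell cannot be told apart. DMY encodes a protein and its transcript was not measured here, so these libraries cannot check the genotype labels against the disrupted gene. The study itself genotyped the D10 fish by amplifying DMY from tail DNA. DMY, a Y-linked copy of dmrt1, is the gene that sets the male pathway in medaka, and XY fish without it form ovaries. A miRNA is a short RNA cut as the 5p or 3p arm of a hairpin precursor. Loaded into an Argonaute protein, it pairs with messenger RNAs and lowers their translation or stability.

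The study checked some of its miRNAs by stem-loop PCR, and 3 of those assays target miRNAs with lower values in MT_Fe_Ov described further on. They are miR-146a-5p, an inhibitor of inflammatory signalling in mammals, miR-10b-5p, encoded in a Hox cluster, and miR-30e-2-3p. Each reverse transcription primer carries a shared stem-loop in lower case, and the capitals mark the 6 bases of its own, which pair with the 3′ end of the miRNA. The forward primers carry most of the sequence of the mature miRNA after a few added bases. All are written 5′ to 3′.
miR-146a-5p, forward: cgcgtgagaactgaattccat
miR-146a-5p, reverse transcription: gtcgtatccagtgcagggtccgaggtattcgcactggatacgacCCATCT
miR-10b-5p, forward: cgcgtaccctgtagaaccga
miR-10b-5p, reverse transcription: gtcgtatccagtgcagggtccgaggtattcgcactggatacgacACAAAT
miR-30e-2-3p, forward: cgcgctttcagtcggatgt
miR-30e-2-3p, reverse transcription: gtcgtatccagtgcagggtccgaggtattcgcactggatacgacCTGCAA

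WT_Ma_Te replicates 1 and 2 were the shallowest of the 6 libraries. MT_Fe_Ov libraries 1, 2 and 3 held 7289835, 5334458 and 8818687 miRNA counts, against 2532275, 2518868 and 8780941 in WT_Ma_Te. Values are given in RPM, the share of a miRNA in the miRNA reads of its library, scaled to 1000000, and 3 counts corresponded to 0.340 to 1.19 RPM in these 6 libraries. Because RPM are shares of a total, a large change in one miRNA shifts all others. Across tested miRNAs, Pearson's r of log2(RPM + 1) was 0.946 to 0.985 for MT_Fe_Ov pairs and 0.968 to 0.979 for WT_Ma_Te pairs. Pairs across the groups correlated at 0.918 to 0.979. The lowest values were those of MT_Fe_Ov replicate 3, at 0.946 and 0.949 within its group and 0.918 to 0.933 with WT_Ma_Te. MT_Fe_Ov replicates 1 and 2 correlated with WT_Ma_Te libraries at 0.969 to 0.979. The miRNAs are not independent replicates, and no test was attached. The p-values below rest on 3 libraries per group, described as biological replicates.

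MT_Fe_Ov replicate 3 stood apart in the miR-26 family. For miR-26a-2/3-ba-5p, among the 3 most abundant miRNAs of both groups, the values were 79037, 89361 and 0 RPM in MT_Fe_Ov and 95948, 66807 and 90768 RPM in WT_Ma_Te. The related miR-26a-1a-5p was likewise at 0 in replicate 3 and at 1697 to 3461 RPM in the other 8 D10 libraries, and miR-26a-1b-5p was at 88.8 RPM (783 counts) against 3425 to 5914 RPM. The opposite arms were present there, with miR-26a-1b-3p at 98.5 RPM. The miR-26 family took 0.0216% of the counts of replicate 3, and 7.26% to 10.2% elsewhere at D10. Among the 388 tested miRNAs, single MT_Fe_Ov or WT_Ma_Te libraries also stood at least 4-fold outside the other 8 D10 libraries. This held for miR-190b-5p, miR-199-3p and miR-726-3p (WT_Ma_Te replicate 1), miR-210-5p (WT_Ma_Te replicate 2) and miR-214-3p (WT_Ma_Te replicate 3). The WT_Fe_Ov libraries were not searched in this way.

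**Figure D1:**
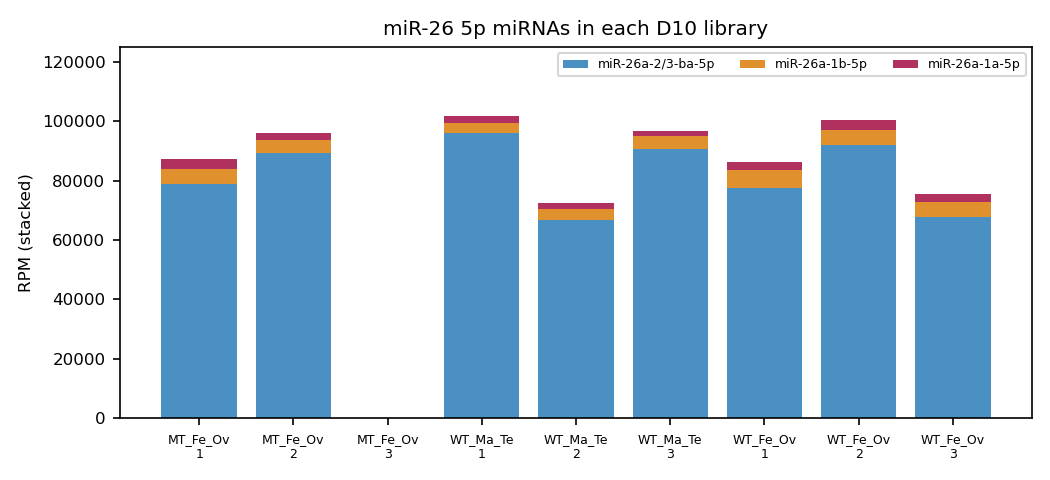
Bars stack the RPM of the 3 miR-26 5p miRNAs in each D10 library. MT_Fe_Ov replicate 3 shows no visible bar, with 88.8 RPM in all, while the other 8 libraries hold the family at its usual level.

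Skin and muscle miRNAs were among the most abundant in both groups, and 7 of the 10 most abundant miRNAs were shared. The skin miRNA miR-203b-3p had the highest mean of both groups, in MT_Fe_Ov owing to the 0 of replicate 3 for miR-26a-2/3-ba-5p, with 62107, 68736 and 80250.4 RPM in MT_Fe_Ov and 61180.2, 110867 and 87262 RPM in WT_Ma_Te. The muscle miRNA miR-206-1-3p stood at 51263, 52158 and 32384 RPM against 67934, 74249 and 41822 RPM. Both sets of values overlapped. In contrast, miR-202-5p, which is abundant in fish gonads, was at 367, 320.4 and 410.3 RPM in MT_Fe_Ov and 155, 123 and 174 RPM in WT_Ma_Te, so the gonad miRNA made up a small part of every library. Every MT_Fe_Ov value lay above every WT_Ma_Te value (log2 fold change 1.11 ± 0.44 SE, edgeR adjusted p = 0.236). In WT_Fe_Ov, miR-202-5p was at 468, 413 and 112 RPM, with replicate 3 below every WT_Ma_Te library.

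No miRNA was a differentially expressed miRNA (DEM) by the edgeR quasi-likelihood test, for which a Benjamini-Hochberg adjusted p no higher than 0.05 and a log2 fold change of 1 or more in either direction were required. Of the 388 miRNAs tested, 0 passed (0%), and the lowest edgeR adjusted p was 0.156, shared by 8 miRNAs. At an unadjusted edgeR p under 0.05 there were 72 miRNAs (18.6% of those tested), 42 higher in MT_Fe_Ov (10.8%) and 30 lower (7.73%). DESeq2, the tool of the study, called 9 DEMs here (2.32%), 8 higher (2.06%) and 1 lower (0.258%), at the same thresholds. The study's own summary at those thresholds lists slightly more DEMs for this contrast, all of them as up. All 9 also had an unadjusted edgeR p under 0.05. For 86 miRNAs (22.2%) the RPM of the groups did not overlap, 67 higher (17.3%) and 19 lower (4.9%) in MT_Fe_Ov. With TMM-scaled values, which correct for differences in library composition, that split was 54 higher and 32 lower. The count at an unadjusted edgeR p under 0.05 and the DESeq2 count depended on MT_Fe_Ov replicate 3. Without it 25 miRNAs were under that p and DESeq2 made 1 call.

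**Figure D2:**
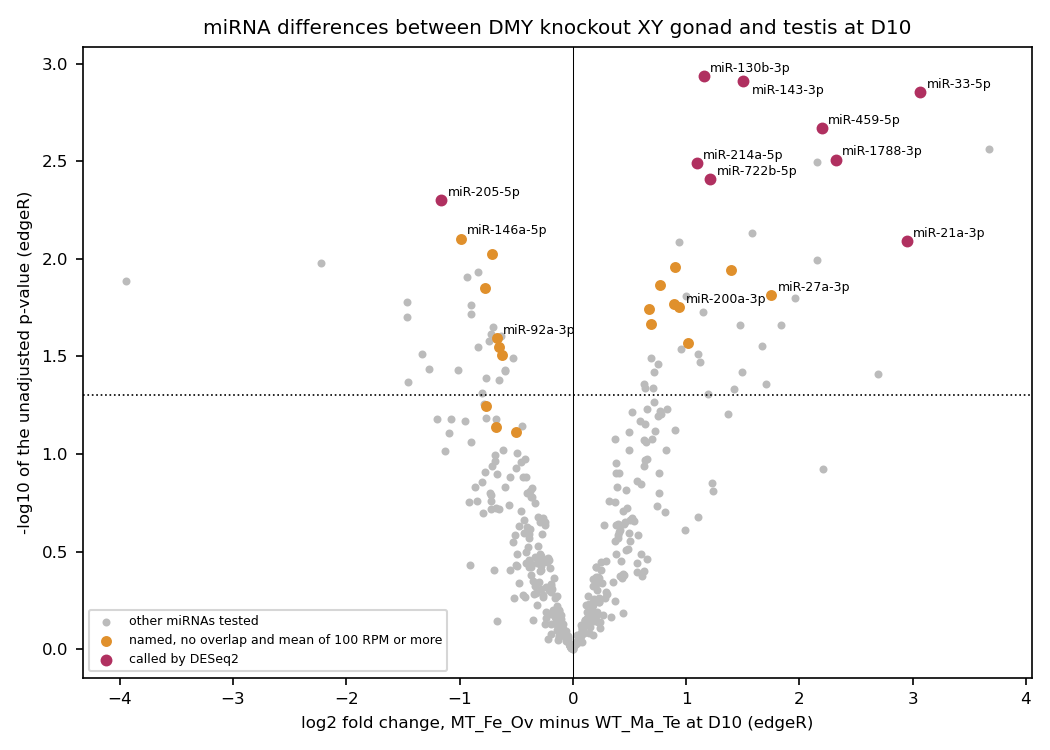
Points are the 388 miRNAs tested, with the edgeR log2 fold change of MT_Fe_Ov over WT_Ma_Te at D10 on the x axis and the -log10 unadjusted p on the y axis, and the dotted line marks a p of 0.05. The 9 miRNAs called by DESeq2 (purple) comprise 8 to the right and miR-205-5p to the left, and none of the points passed the edgeR threshold after adjustment.

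Log2 fold changes and their SE are from edgeR throughout. The largest of the 9 differences was that of miR-33-5p, which in vertebrates lies inside a sterol regulatory gene and represses cholesterol export. Its hairpin maps to chromosome 8, positions 12411119 to 12411212 (ASM223467v1), within srebf1. Its RPM were 215, 97.3 and 271 in MT_Fe_Ov and 28.8, 17.5 and 15.0 in WT_Ma_Te. The lowest MT_Fe_Ov library, replicate 2, was still above the highest WT_Ma_Te library. The edgeR log2 fold change was 3.07 ± 0.71 SE (unadjusted p = 0.0014), and the DESeq2 adjusted p was 0.000496. Alone among the 9, it was called by DESeq2 in all 13 other DESeq2 settings tried, the one without MT_Fe_Ov replicate 3 included. The other arm of a miR-33 hairpin, miR-33a-3p, was scarce, at 4.12, 2.25 and 4.88 RPM against 1.18, 0.397 and 0.683 RPM. Its groups did not overlap, as was so for 22.2% of all miRNAs tested. WT_Ma_Te replicates 1 and 2 lay at and under what 3 counts are worth there, 1.18 and 1.19 RPM.

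The most abundant of the 9 in MT_Fe_Ov was miR-143-3p, a miRNA of smooth muscle and other mesenchymal cells. Its hairpin lies at chromosome 10, 4587604 to 4587712, outside any annotated host gene and within 10 kb of the miR-145 hairpin. MT_Fe_Ov libraries held 17784, 16068 and 18426 RPM and WT_Ma_Te libraries 7402, 3005 and 6112 RPM. The knockout libraries were close to each other and all above the testis libraries. The log2 fold change was 1.51 ± 0.34 SE by edgeR (unadjusted p = 0.00123), with a DESeq2 adjusted p of 0.00465 that became 0.0657 without MT_Fe_Ov replicate 3. Its neighbour miR-145-5p did not follow, at 287, 643 and 448 RPM against 637, 501 and 443 RPM, with overlapping groups (log2 fold change -0.38 ± 0.31 SE).

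A pair of miRNAs whose roles are less defined showed fold changes above that of miR-143-3p. The fish miRNA miR-459-5p (chromosome 2, 1298973 to 1299077) stood at 1042, 485 and 1218 RPM in MT_Fe_Ov and 88.9, 184 and 248 RPM in WT_Ma_Te, a log2 fold change of 2.20 ± 0.54 SE (DESeq2 adjusted p = 0.00465). For miR-1788-3p (chromosome 21, 30530989 to 30531084) the values were 61.7, 20.2 and 59.4 RPM against 5.92, 8.34 and 10.2 RPM, a log2 fold change of 2.32 ± 0.61 SE (DESeq2 adjusted p = 0.00623). In both, MT_Fe_Ov replicate 2 was the lowest knockout library and lay above all testis libraries. Neither was called by DESeq2 without MT_Fe_Ov replicate 3 (adjusted p = 0.0677 for both) or without MT_Fe_Ov replicate 1 (adjusted p = 0.0534 and 0.0810). Both were called in 10 of the 13 other DESeq2 settings.

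The other 4 miRNAs with higher DESeq2 calls were scarce. For miR-130b-3p, the values were 81.9, 82.1 and 115 RPM against 31.2, 29.4 and 48.9 RPM (edgeR log2 fold change 1.15 ± 0.26 SE, DESeq2 adjusted p = 0.00886). For miR-21a-3p, the 3p arm of a miR-21 hairpin, the values were 68.3, 33.6 and 56.4 RPM against 15.0, 1.59 and 2.85 RPM (log2 fold change 2.95 ± 0.90 SE, DESeq2 adjusted p = 0.00974). Here WT_Ma_Te replicate 1 stood well above the other testis libraries. For miR-214a-5p, from a stromal miRNA family, the values were 57.3, 49.9 and 78.1 RPM against 22.1, 27.8 and 25.5 RPM (log2 fold change 1.10 ± 0.29 SE, DESeq2 adjusted p = 0.0425). For miR-722b-5p, the values were 21.0, 38.2 and 44.6 RPM against 12.6, 11.5 and 14.5 RPM (log2 fold change 1.22 ± 0.33 SE, DESeq2 adjusted p = 0.0496). The groups did not overlap for any of the 4. Of the 13 other DESeq2 settings, miR-130b-3p and miR-21a-3p were each called in 9, miR-214a-5p in 5 and miR-722b-5p in 3.

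The only lower DESeq2 call was miR-205-5p, an epithelial miRNA of skin (chromosome 7, 22546335 to 22546413). Its RPM were 7987, 8954 and 6951 in MT_Fe_Ov and 14870.0, 21347 and 10727 in WT_Ma_Te. Every knockout library was below every testis library, and the testis libraries spread more widely. The edgeR log2 fold change was -1.16 ± 0.33 SE (unadjusted p = 0.00502), and the DESeq2 adjusted p was 0.0425, or 0.371 without MT_Fe_Ov replicate 3. Of the skin and epithelium list, this was the only DESeq2 call.

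**Figure D3:**
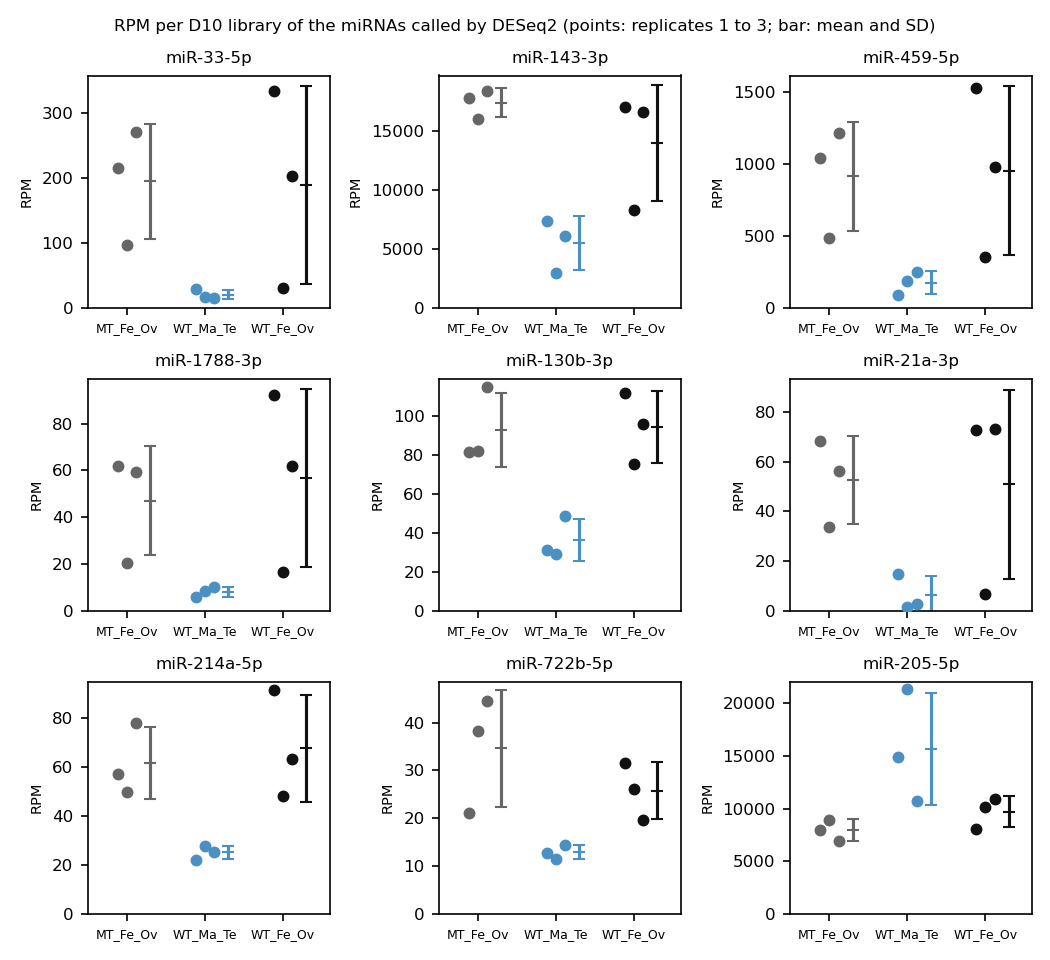
Points give the RPM (y axis, from 0) of the 9 miRNAs called by DESeq2 in replicates 1 to 3 of each D10 group, and bars give the mean and SD. In 8 panels all MT_Fe_Ov points lie above the WT_Ma_Te points, in the panel of miR-205-5p under them, and WT_Fe_Ov replicate 2 lies low in the panels of miR-33-5p, miR-459-5p, miR-1788-3p and miR-21a-3p.

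Among the 184 tested miRNAs with a mean of at least 100 RPM, 46 did not overlap, 36 higher and 10 lower. Of all 388 tested, 22.2% did not overlap, 17.3% higher and 4.9% lower. TMM scaling, which made the split over all miRNAs less uneven, was not applied to this subset. The 12 higher ones with the smallest edgeR p are described, 3 of them above as DESeq2 calls, so the p-values of the other 9 follow from that choice (edgeR adjusted p of 0.219 to 0.233). The most abundant of these 9 was miR-200a-3p, which guards the epithelial state in mammals, at 30281, 33526 and 54259 RPM against 10968, 21085 and 20731 RPM (log2 fold change 0.94 ± 0.33 SE). The epithelial miRNAs miR-200a-3p and miR-205-5p lay on opposite sides. The cartilage miRNA miR-140-5p, encoded within wwp2 on chromosome 6, was at 6955, 7521 and 11573 RPM against 5364, 3105 and 3782 RPM (log2 fold change 0.89 ± 0.31 SE).

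Members of the miR-27 family, which act in lipid metabolism and adipocyte formation in mammals, made up 3 of these 9. For miR-27e-3p, the values were 5899, 8118 and 10172 RPM against 4423, 3479 and 5228 RPM (log2 fold change 0.69 ± 0.25 SE). For miR-27c-3p, the values were 2096, 1315 and 1938 RPM against 684, 799.6 and 1057 RPM (log2 fold change 0.90 ± 0.29 SE). The third, miR-27a-3p, with 1125, 599.7 and 926 RPM against 382, 156 and 168 RPM, had a log2 fold change of 1.75 ± 0.60 SE. The knockout libraries were above the testis libraries in each, as the choice of miRNAs without overlap required. The hairpins of miR-27c (chromosome 8, 13284932 to 13285038) and miR-27a (chromosome 17, 28889263 to 28889355) each lie within 10 kb of miR-23 and miR-24 hairpins. Over the 21 tested miRNAs of the miR-23, miR-24 and miR-27 families, 5 were higher and 1 lower at unadjusted p under 0.05, beside 10.8% and 7.73% of all miRNAs, and the median log2 fold change was 0.13 against -0.02 for all. Without MT_Fe_Ov replicate 3, 3 of these 21 were under an unadjusted p of 0.05, in a fit where fewer of all miRNAs passed that p. The 10.8% and 7.73% are therefore no like background for these 3. How reads that match several near-identical copies were shared out is not stated, so values of single family members are uncertain.

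Others of these 9 had smaller levels. For miR-18c-5p, from a relative of the miR-17-92 cluster linked to cell proliferation in mammals, the values were 229, 177 and 314 RPM against 123, 77.0 and 40.0 RPM (log2 fold change 1.39 ± 0.45 SE). For miR-132a-5p, whose family acts in neurons, the values were 173, 151 and 245 RPM against 66.7, 53.6 and 126 RPM (log2 fold change 1.02 ± 0.39 SE). The other two, miR-7132a-5p and miR-7132b-5p, had log2 fold changes of 0.77 and 0.68, with MT_Fe_Ov values of 198 to 286 and 513 to 746 RPM.

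Of the 10 lower miRNAs of that abundance without overlap, miR-205-5p aside, log2 fold changes ran from -0.50 to -0.99. For miR-146a-5p, the values were 724, 669 and 541 RPM against 1002, 898 and 1559.9 RPM (log2 fold change -0.99 ± 0.30 SE, edgeR adjusted p = 0.219). For miR-92a-3p, the most abundant arm of the miR-17-92 relatives, the values were 31117, 22958 and 24884 RPM against 36419, 40155 and 35307 RPM (log2 fold change -0.67 ± 0.26 SE). All knockout libraries were below all testis libraries in both, as the same choice required. Next, miR-454b-3p, miR-725-3p, miR-139a-5p and miR-30e-2-3p followed, with log2 fold changes of -0.71, -0.78, -0.65 and -0.62, at unadjusted edgeR p of 0.00948 to 0.0311. For miR-30e-2-3p the libraries held 208, 179 and 175 RPM against 332, 225 and 217 RPM.

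The last lower miRNAs did not overlap in RPM but missed an unadjusted edgeR p of 0.05. Among them miR-10b-5p (chromosome 21, 22545237 to 22545344, within hoxd3) was at 17385, 14097 and 9495 RPM against 27785, 17874 and 17516 RPM, with the highest knockout and the lowest testis libraries nearly equal (log2 fold change -0.76 ± 0.36 SE, edgeR adjusted p = 0.295). For miR-16a-5p there was a log2 fold change of -0.68 (edgeR adjusted p = 0.306). The abundant miR-21-5p, at 41903, 37456 and 35882 RPM against 46178, 44399 and 54781 RPM, had one of -0.50 (edgeR adjusted p = 0.312), whereas miR-21a-3p was higher in the knockout.

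The log2 fold changes of both arms of 1 hairpin often had opposite signs, and a difference between arms was not tested. Both arms were tested for 109 hairpins, and in 58 their log2 fold changes had the same sign. Where at least 1 arm had an unadjusted edgeR p under 0.05, in 39 hairpins, 24 had the same sign, and miR-725 was the only hairpin with both arms under that p. For miR-130b, for example, the 5p arm had a log2 fold change of -0.28 and the 3p arm one of 1.15. For miR-1788 they were 0.54 and 2.32.

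Some marker miRNAs of other tissues moved with the groups. Of 15 lists of tissue miRNAs, the summed RPM of 6 were higher in every MT_Fe_Ov library than in every WT_Ma_Te library, 1 was lower and 8 overlapped. Under TMM scaling 2 were higher, cartilage and the gonad list itself, and 1 was lower. Stromal miRNAs (miR-143, miR-145, miR-199 and miR-214) summed to 60724, 57322 and 63059 RPM in MT_Fe_Ov against 30539.7, 49864 and 39372 RPM in WT_Ma_Te. Of 9 stromal miRNAs tested, 5 did not overlap, all higher, beside 17.3% of all miRNAs, and 2 were under an unadjusted p of 0.05, beside 10.8%, namely miR-143-3p and miR-214a-5p. The sum depends on single libraries, since miR-199-3p was at 2547, 18707 and 21461 RPM in the testis libraries and miR-214-3p at 11497, 14241 and 284 RPM.

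Gut miRNAs (miR-192, miR-194 and miR-215) summed to 38826 to 48673 RPM against 13740.2 to 36309.5 RPM, and none of the 6 tested was under an unadjusted edgeR p of 0.05. Red blood cell miRNAs (miR-144 and miR-451) summed to 9636 to 25071 RPM against 6110.3 to 9451 RPM, with 1 of 3 under that p, beside 18.6% of all miRNAs. Cartilage miRNAs summed to 11835 to 18374 RPM against 7084 to 10889.8 RPM, with 1 of 4 beside the same 18.6%. That 1 was miR-140-5p, while log2 fold changes were 0.57 for miR-140-3p, 0.01 for miR-455-5p and -0.04 for miR-455-3p. The miR-34 and miR-449 families of ciliated and male germ cells summed to 6533 to 7481 RPM against 3894 to 6512 RPM, with 0 of 4. The gonad list is miR-202, whose sum was 323 to 414 RPM against 125 to 176 RPM. With TMM-scaled values the stroma, gut, red blood cell and ciliated cell sums overlapped.

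Immune miRNAs were the list with lower sums, 1969 to 2244 RPM against 2311 to 3115 RPM, also with TMM scaling. The mean sum was 2124 against 2587 RPM, and miR-146a-5p alone had a wider gap, 645 against 1153 RPM. The members were split, with 2 not overlapping on the higher side and 2 on the lower, beside 17.3% and 4.9% of all miRNAs. On the higher side was miR-150-5p, at 725, 783 and 752 RPM against 434, 688 and 630 RPM. Of the 9 tested, miR-146a-5p and miR-223-5p were lower and miR-142-5p higher at an unadjusted edgeR p under 0.05, beside 7.73% lower and 10.8% higher of all miRNAs. The miR-142-5p values were 2.19, 2.25 and 4.08 RPM against 0.395, 0.397 and 0.683 RPM, and WT_Ma_Te replicates 1 and 2 lay under what 3 counts are worth there, 1.18 and 1.19 RPM. The sums of muscle (89201 to 125342 against 97760.4 to 156474 RPM), skin, neural, sensory, liver, pancreas, endothelium and miR-430 miRNAs overlapped between the groups. The part of these tissue markers in the miRNA differences was not tested.

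**Figure D4:**
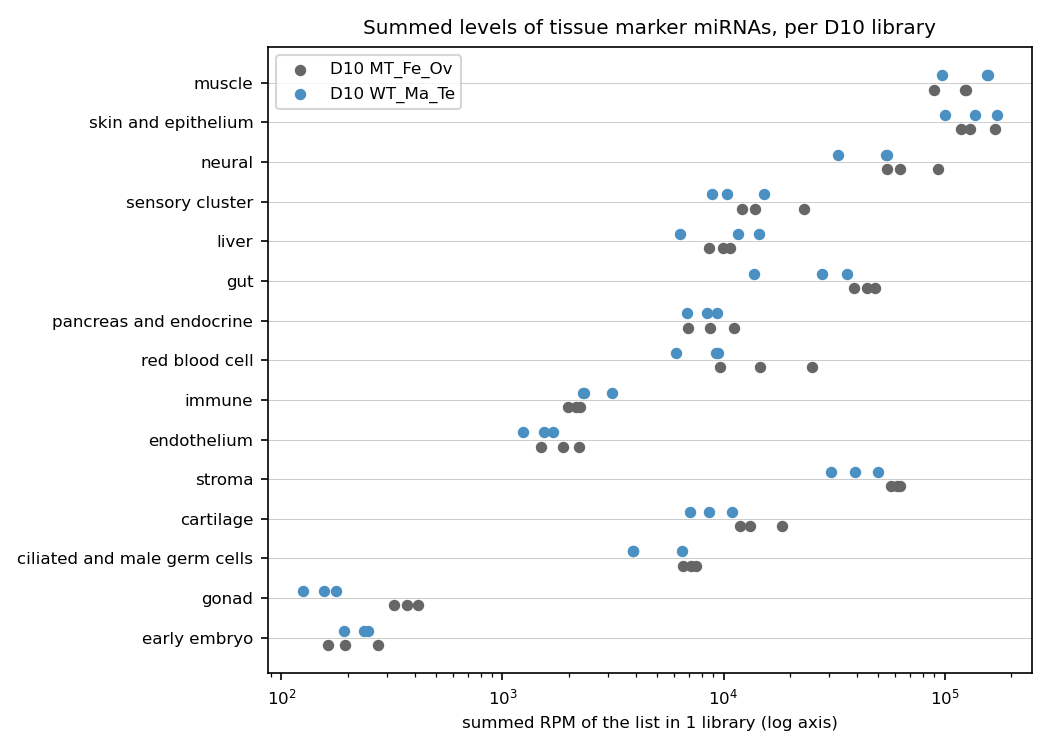
Each point is the summed RPM (log axis) of a list of tissue marker miRNAs in 1 D10 library, with MT_Fe_Ov in grey and WT_Ma_Te in blue. The stroma, gut, red blood cell, cartilage, ciliated cell and gonad sums of MT_Fe_Ov lie to the right of all WT_Ma_Te sums, the immune sums to the left, and muscle and skin miRNAs give the highest sums in both groups.

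Of 11 further lists by family, 3 had sums that did not overlap, under TMM scaling as well. The miR-23, miR-24 and miR-27 families summed to 28244 to 38273 RPM in MT_Fe_Ov against 21549 to 27604 RPM. The miR-17-92 relatives were lower, at 31111 to 38998 RPM against 42156 to 47015 RPM, a sum led by miR-92a-3p, with 2 of 29 tested members higher and 2 lower at unadjusted p under 0.05, not above the 10.8% and 7.73% of all miRNAs. The miR-15 and miR-16 families were also lower, at 8444 to 9191 RPM against 9460.0 to 11199 RPM, with 1 of 9 tested members higher and 0 lower at that p, beside the same shares. The Hox miRNAs of the miR-10 and miR-196 families had the lowest median, -0.60 on the log2 scale, with 9 of 10 below 0, while their sums overlapped.

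The difference from testis was set beside that from XX ovary at the same age. Between MT_Fe_Ov and WT_Fe_Ov, edgeR called 0 of 388 miRNAs (0%) and DESeq2 called 0, with 11 at an unadjusted edgeR p under 0.05 (2.84%). Of the 72 miRNAs under that p against testis, 2 were also under it against XX ovary. For miR-33-5p the log2 difference between MT_Fe_Ov and WT_Fe_Ov was 0.03 ± 0.64 SE, for miR-143-3p 0.30 ± 0.33 SE and for miR-205-5p -0.32 ± 0.32 SE. Over the 27 miRNAs described above, the 9 DESeq2 calls included, it ran from -0.61 to 0.49, and miR-454b-3p, the lowest, was the only one with an unadjusted edgeR p under 0.05 (0.021). A p above the threshold does not show that the 2 kinds of ovary are alike.

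Between WT_Fe_Ov and the same WT_Ma_Te libraries, edgeR called 0 (0%), with 76 at an unadjusted p under 0.05 (19.6%), and DESeq2 called 23 (5.93%). The testis libraries are shared by both comparisons, so their results are not independent. WT_Fe_Ov itself was uneven. In its 3 libraries miR-33-5p was at 334, 30.1 and 203 RPM and miR-459-5p at 1530.4, 354 and 983 RPM. For 6 of the 17 higher miRNAs WT_Fe_Ov replicate 2 was at or below the highest testis library, against 0 for replicate 1 and 1 for replicate 3.

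At later stages some of these differences were turned around. The 9 miRNAs were chosen by their D10 difference, which the tests of change between stages subtract, so a change away from it is favoured by the choice. For miR-143-3p, the D30 libraries held 6134, 8197 and 6686 RPM in MT_Fe_Ov and 79698, 68169 and 66164 RPM in WT_Ma_Te, and the D120 libraries 63072, 74949.5 and 44889 RPM and 94218, 91018 and 101404 RPM. Knockout was above testis at D10 and below it at D30 and D120. The change of the MT_Fe_Ov over WT_Ma_Te difference was -4.68 ± 0.39 SE log2 units from D10 to D30 (edgeR adjusted p = 1.17e-08) and -1.94 ± 0.38 SE from D10 to D120 (edgeR adjusted p = 0.00115). For miR-33-5p the D120 values were 1591, 2217 and 1127 RPM against 4887, 3503 and 2605 RPM, with a change of -4.01 ± 0.84 SE from D10 (edgeR adjusted p = 0.00172). In contrast, miR-21a-3p was higher in the knockout at D120 as at D10, with 1182, 1727 and 1312 RPM against 518, 472 and 611 RPM. At D30, however, it was lower, at 0, 0 and 0 RPM in MT_Fe_Ov against 343, 220.4 and 227 RPM in WT_Ma_Te.

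The methods name adjacent tissue for D10 only, so stage and dissection cannot be told apart. The D30 MT_Fe_Ov libraries also held few miRNA counts, 107271, 54535 and 351194, where 3 counts are worth 28.0, 55.0 and 8.54 RPM. For them the study reports total reads near those at D10, with a small share on miRNAs. The miR-33-5p values of these libraries (28.0, 0 and 37.0 RPM) correspond to 3, 0 and 13 counts, against 1113, 753 and 705 RPM in testis. Of 399 miRNAs tested in all 27 libraries, the difference between the groups changed from D10 to D30 for 133 (33.3%), 41 of them higher (10.3%) and 92 lower (23.1%), and from D10 to D120 for 76 (19%), 27 of them higher (6.77%) and 49 lower (12.3%), by edgeR at the same thresholds. Without MT_Fe_Ov replicates 2 or 3 or WT_Ma_Te replicate 2 of D10, the D120 count was 50, 47 and 49.

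**Figure D5:**
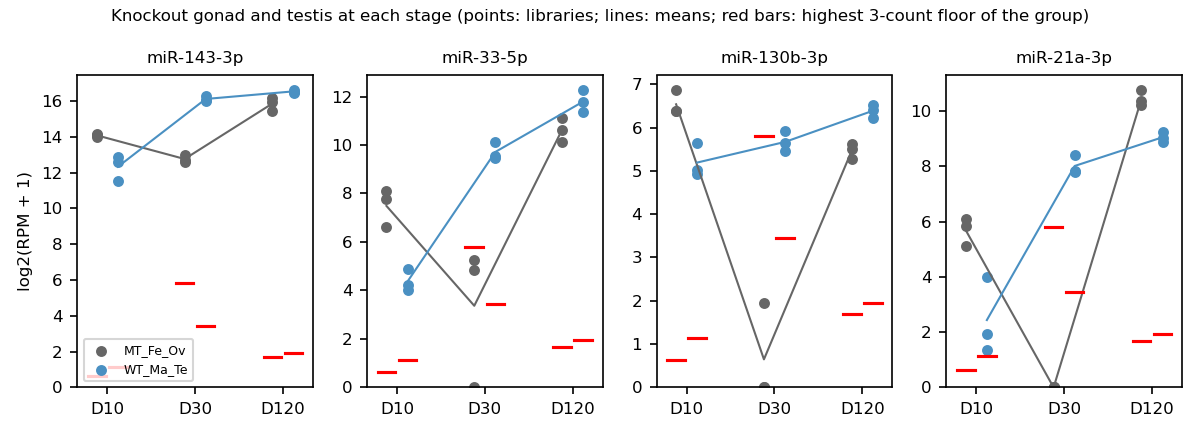
Values of 4 miRNAs called by DESeq2 at D10 are shown as log2(RPM + 1) in MT_Fe_Ov (grey) and WT_Ma_Te (blue) at D10, D30 and D120, with lines through the means and a red bar at the highest RPM that 3 counts are worth in each group. All 4 are above testis at D10, and miR-143-3p, miR-33-5p and miR-130b-3p are below it at D120, while the miR-33-5p, miR-130b-3p and miR-21a-3p points of MT_Fe_Ov at D30 lie under the red bar.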

How the data were processed

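The authors isolated small RNA by gel, ligated adapters, amplified by RT-PCR and sequenced on an Illumina instrument. They kept reads longer than 17 nt, mapped them with miRDeep2 to the medaka genome ASM223467v1, and took counts for the mature miRNAs listed in FishmiRNA. The deposited counts are whole reads per miRNA, and the deposited RPM are counts scaled to 1000000 miRNA counts per library, which recomputation matched within 4.97e-05. Every value column was mapped to a sample (0 left out). No molecular identifiers were used, so floors of 3 counts cover counting error only.

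Counts of the 9 D10 libraries were tested with edgeR 4.0.16 in R 4.3.3 (quasi-likelihood F test, TMM scaling, Benjamini-Hochberg adjustment) after dropping miRNAs that did not reach 10 counts in 3 libraries or more. A difference was called at an adjusted p no higher than 0.05 with a log2 fold change of 1 or more either way. DESeq2 1.42.0 (Wald test), the tool of the study, was the alternative. Differences between stages were fitted over all 27 libraries. The tests were tried on simulated counts first. Tables and figures used Python 3.11.15.

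Candidates for naming were the 10 most abundant miRNAs per group, the 2 most abundant of each list and those the study names. Of these only a part is described above. Also named were, per direction, up to 12 miRNAs with the smallest p among those of at least 100 RPM on average without overlap. The DESeq2 calls and miRNAs at 0 in 1 library and over 1000 RPM in another were named too. Members and lists were chosen with earlier results of these data known. Hairpin positions came from RefSeq annotation of ASM223467v1 for the 116 of 437 miRNAs matched by name. Other scalings, filters, fits, the replicate block and each library left out were tried as alternatives.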

Additional observations from a re-analysis of the deposited data

Results flagged for a closer look

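For 7 of the 9 miRNAs called by DESeq2 at D10, the difference between MT_Fe_Ov and WT_Ma_Te itself changed with stage by the edgeR test. That number takes a change at either D30 or D120. Of all miRNAs, 33.3% changed from D10 to D30 and 19% from D10 to D120, each stage taken alone. These shares are therefore no like background for the 7. The 9 miRNAs were chosen by their D10 difference, which the test subtracts. The choice thus favours a change in the difference between the groups. From D10 to D30 it changed by -7.68 for miR-33-5p, -4.68 for miR-143-3p, -5.50 for miR-130b-3p, -15.34 for miR-21a-3p and -2.94 for miR-214a-5p, all on the log2 scale. At D30 the 3 MT_Fe_Ov libraries held 0 counts of miR-21a-3p, so its fitted value depends on the prior count and is no bound, and the WT_Ma_Te libraries held 343, 220.4 and 227 RPM. For miR-130b-3p the D30 values were 0, 0 and 2.85 RPM against 48.7, 59.2 and 42.8 RPM. The testis values are close to what 3 counts are worth in the knockout library with the fewest miRNA counts, 55.0 RPM. From D10 to D120 the change was -4.01 for miR-33-5p, -1.94 for miR-143-3p, -3.28 for miR-459-5p and -6.27 for miR-1788-3p. The D120 value of miR-1788-3p had WT_Ma_Te libraries at 19.1, 10.4 and 124 RPM, with replicate 3 far above the others. The call of miR-459-5p was lost without D10 MT_Fe_Ov replicate 3 (-2.90) or D10 WT_Ma_Te replicate 1 (-2.93), and that of miR-214a-5p without D10 MT_Fe_Ov replicate 3 (-2.65).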

How the results depend on the processing

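The edgeR count of 0 DEMs between MT_Fe_Ov and WT_Ma_Te became 9 with DESeq2, 1 with the 6 libraries alone, 2 with all 27 libraries and 11 with DESeq2 on the 6 libraries, and 0 to 1 when each library was left out, the 1 without WT_Fe_Ov replicate 2. The edgeR calls in these fits were miR-33-5p, and with 27 libraries also miR-143-3p. The 72 miRNAs at an unadjusted p under 0.05 ranged from 25, without MT_Fe_Ov replicate 3, to 72. The split of 42 higher and 30 lower became 58 and 10 with library totals alone, which move the median log2 fold change from -0.02 to 0.15. The 9 DESeq2 calls became 5 on all 27 libraries with a minimum of 1 count, and 1 to 27 with a library left out (1 without MT_Fe_Ov replicate 3, 27 without WT_Ma_Te replicate 1, 17 without WT_Ma_Te replicate 3, of which 8 higher and 9 lower). The share without overlap, 22.2%, was 24.5% to 38.7% with a library left out. Leaving out a library cannot make a miRNA overlap, so this rise was built into the comparison. For WT_Fe_Ov against WT_Ma_Te the edgeR count of 0 was 23 with DESeq2, 2 with all 27 libraries and 0 to 7 with a library left out (7 without WT_Fe_Ov replicate 2, 1 without replicate 3). The stage counts at an adjusted p of 0.01 were 82 for D30 and 38 for D120. At the adjusted p of 0.05 they were 133 and 76. Leaving out 1 D10 library of MT_Fe_Ov or WT_Ma_Te gave 111 to 130 and 47 to 67 at that 0.05. No D30 or D120 library was left out. Same-numbered libraries of the 2 groups had deviations that correlated at -0.07, 0.06 and 0.10, and other-numbered ones at -0.20 to 0.12. With 3 libraries per group these values cannot show whether the numbers pair the libraries. With the replicate block edgeR called 0 and DESeq2 20, with 60 at an unadjusted edgeR p under 0.05. Without the miR-26 family, an alternative chosen after seeing the data, these counts moved by less than 1.5 times. Low miRNA counts limited scarce miRNAs most in WT_Ma_Te replicates 1 and 2 and in MT_Fe_Ov at D30.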
